A study of Mus musculus with 2 samples.

Results

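The axon guidance ligand and receptor families were followed in an ATAC-seq experiment on primary murine cardiac fibroblasts. Members were the genes whose symbol in the peak table starts with Sema, Plxn, Efna, Efnb or Unc5, or with Epha, Ephb, Slit, Robo, Ntn or Nrp followed directly by a number. This gave 58 of 16934 genes and 277 of 63316 peaks, in 12 families. In ATAC-seq the Tn5 transposase cuts open DNA and inserts sequencing adapters there, so that the read density over a region follows how accessible its chromatin is. The control library (SCR) came from cells labelled heart, primary cardiac fibroblasts, given TGF-β (5 ng/ml, 24 h) and scrambled siRNA, and the other (siPiezo2) from the same kind of cells given TGF-β and siRNA against Piezo2, a mechanically gated cation channel. TGF-β turns resting fibroblasts into contractile, matrix-producing myofibroblasts, and both libraries received it. The labels name no strain, genotype, age or number of animals. The text deposited for the series names a Cre-driven Tet3 knockout in place of the siRNA, and the methods describe minced tissue and a kit other than that of the labels. Which account holds could not be settled here, so the groups follow the sample labels and the paper's legend.

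Guidance cues were found as signals that attract or repel growing axons, and the same proteins steer migrating cells, vessel sprouts and heart cushions. Secreted Slits bind Robo receptors. Netrins bind Dcc and Unc5 receptors, the latter usually giving repulsion. Semaphorins signal through plexins, and most of the secreted class 3 semaphorins need neuropilins as co-receptors, Sema3e being an exception. Ephrins stay on the cell surface, A types through a lipid anchor and B types through a membrane span, and bind the Eph receptor tyrosine kinases of neighbouring cells. Most of these receptors act on the actin cytoskeleton of the receiving cell.

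With a single library for each condition, differences have no replicate check and no test was made. Levels are the authors' normalized read densities, in windows of 2000 bp around each peak, and a gene's level is their sum over its peaks. Log2 ratios are log2((siPiezo2 + 1)/(SCR + 1)) of these densities, so a negative value means less accessible chromatin in the siPiezo2 library. Values below 0 were common, at 62.6% of all genes and at 65.2% of the peaks in genes with 5 or more peaks. Ranges in parentheses are 95% exact binomial (Clopper-Pearson) intervals of the reads behind a density and cover counting error only. The peaks of the table held 4615335 reads in SCR and 2754046 in siPiezo2, and a median member peak held 55 and 34. The members had 0.394% of the SCR reads and 0.387% of the siPiezo2 reads. Peaks called in both libraries varied 2.04 times as much as counting error allows, and intervals widened for this, by a factor of 1.43, are named as widened. That is an estimate from the median of the squared deviations, and their mean gives a factor of 2.08. Summed densities grow with the number of peaks and are compared between genes only to choose which genes to name. The siRNA acts on the transcript, so accessibility cannot check the knockdown, and the 14 peaks of Piezo2 summed to 334 in SCR and 242 in siPiezo2 (log2 ratio -0.46, -0.64 to -0.29).

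As a whole the families lay close to genes at large. The interval lay below the median of all genes for 8 members (13.8%, against 9.01% of all genes). These were, from the lowest up, Unc5c, Ephb2, Robo1, Slit2, Sema3a, Ephb4, Nrp1 and Slit1. With widened intervals 5 of these stayed below that median (8.62% of members), all but Slit2, Ephb4 and Nrp1. The share of all genes below it with widened intervals was not computed. The clearest surplus, over 3 peaks, lay at Epha2. The median log2 ratio of the 58 members was -0.13 (quartiles -0.28 and 0.048) against -0.093 over all genes, with 41 members below 0 (70.7%, against 62.6% of all genes), and with promoter peaks only it was 0.12 above that of all genes. The all-gene median depends on the scaling: it was 0.043 after median-of-ratios scaling, where the members' median was 0.0022, and the members' median minus that of all genes was between -0.046 and -0.040 under every scaling tried, without a test. Summed over all members the density was 7532 in SCR and 6698 in siPiezo2 (log2 ratio -0.17, -0.20 to -0.13), against -0.10 summed over all genes with a peak.

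Few members passed a fold. Below 0.66 of SCR were 2 members, Plxna4os1 and Sema3g (3.45%, against 6.21% of all genes), and above 1.5 was 1, Sema4d (1.72%, against 1.54%). Each of these 3 genes has a single peak. Under the 3 other scalings 0 members were below 0.66 (against 2.92% to 4.22% of all genes), and Sema4d stayed above 1.5 (against 2.70% to 4.19% of all genes). Counting intervals are narrower where more reads were counted, and 20 of the members have 5 or more peaks (34.5%, against 12.7% of all genes). The interval lay below 0 for 16 members (27.6%, against 15.2% of all genes) and above 0 for 2, Epha2 and Sema4b (3.45%, against 4.37%). Among the 20 members with 5 or more peaks, 13 had an interval below 0 (65.0%, against 38.6% of all such genes) and 1, Sema4b, had it above 0 (5%, against 3.34%). Against the median of all genes in place of 0, 8 members lay wholly below (13.8%, against 9.01%) and 3 wholly above (5.17%, against 8.47%), and of those with 5 or more peaks 6 lay below (30.0%, against 22.6%). With widened intervals 8 members stayed below 0 (13.8%, against 6.80%), namely Unc5c, Ephb2, Robo1, Sema3a, Nrp1, Slit1, Plxna4 and Sema5a, and Epha2 alone stayed above (1.72%, against 1.42%). These 8 are all among the 20 members with 5 or more peaks, where the matching count over all genes was 516 of 2157. The shares of all genes given for widened intervals and separate windows are not matched for peak number. The factor of 2.08, tried after seeing the data, left Ephb2, Robo1 and Sema3a below 0 (5.17%, against 2.11%) and none above (0%, against 0.313%). The 8 named are also the members whose unwidened interval stayed below 0 when the peak carrying most of the difference was left out, a check added after seeing the data. The intervals of Epha4, Ephb4, Plxna2, Sema6a, Slit2, Slit3 and Unc5b then reached 0, as did that of Sema4b. Neighbouring peaks can lie closer than a window and then share reads, which narrows an interval. With only peaks whose windows are separate, the interval lay below 0 for 13 members (22.4%, against 13.6% of all genes) and above 0 for Epha2 only (1.72%, against 3.79%). Widened as well, a combination added after seeing the data, it lay below 0 for 8 (13.8%, against 5.50%), with Slit3 in the place of Plxna4, and above 0 for none (0%, against 1.13%).

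**Figure D1:**
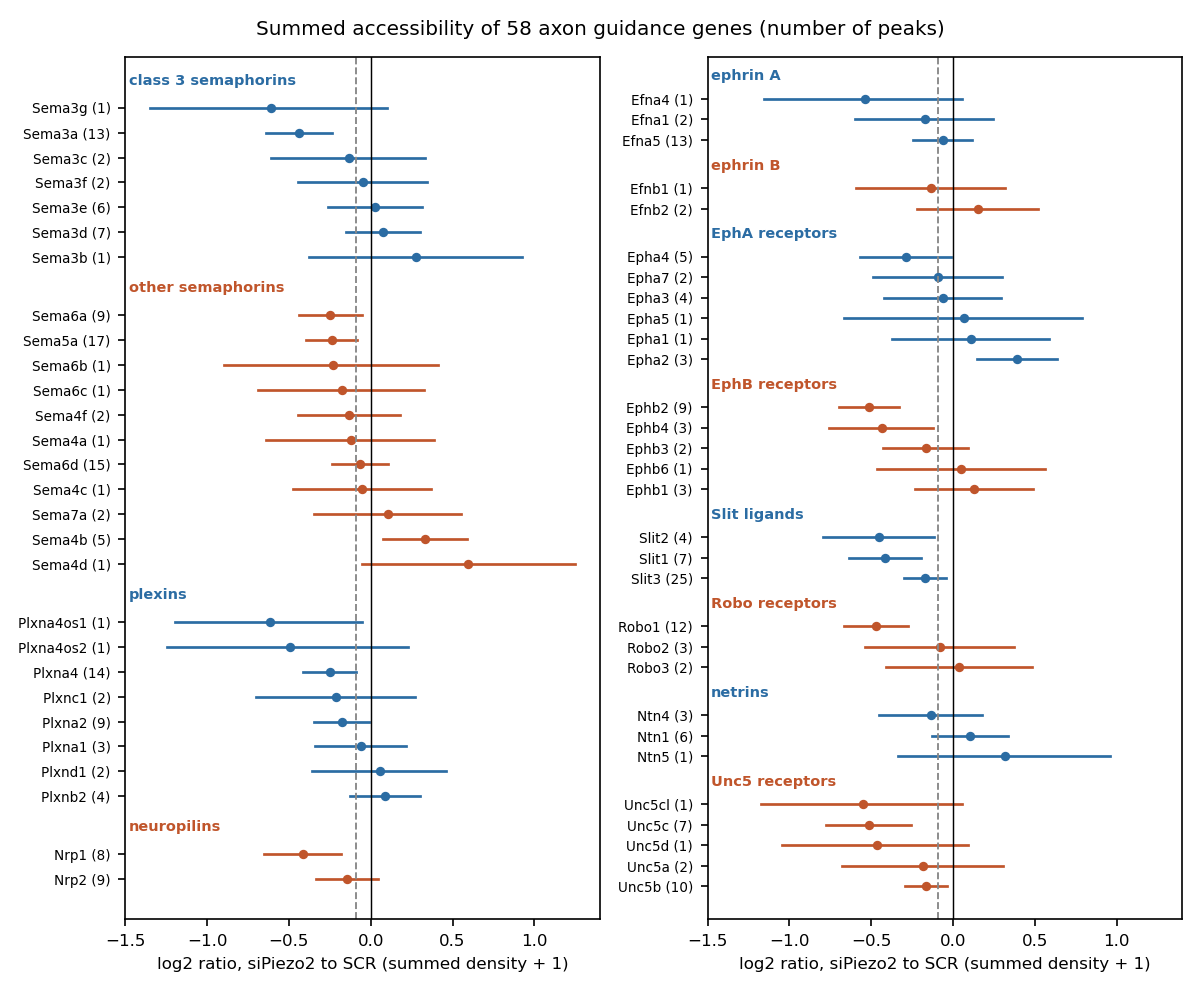
Log2 ratio of siPiezo2 to SCR for the summed density of each of the 58 genes (points), with 95% counting intervals from the reads (lines), by family, and the number of peaks in parentheses; the solid line marks 0 and the dashed line the median of all genes (-0.093). Unc5c, Ephb2, Robo1, Slit2, Sema3a, Ephb4, Nrp1 and Slit1 lie wholly to the left of both lines, while Epha2 and Sema4b lie wholly to the right of 0.

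The Slit ligands were lower in siPiezo2 at all 3 genes (100%, against 62.6% of all genes). Slit2, which repels axons and is made by many mesenchymal cells, had 94.2 in SCR and 68.7 in siPiezo2 over 4 peaks (log2 ratio -0.45, -0.79 to -0.11), while its single promoter peak had 21.1 and 26.6 (0.32, -0.30 to 0.94). A 5′ UTR peak beside it, which shares reads with it, had 30.0 and 21.3 (-0.48, -1.11 to 0.13). Its difference lay mostly in 1 peak in intron 4, which had 25.4 in SCR and 9.31 in siPiezo2, and without that peak the gene stood at -0.21 (-0.59 to 0.16). Slit1 had 216 and 162 over 7 peaks (-0.41, -0.63 to -0.20). Of its peaks, 3 in intron 4 held the deficit, at 57.1, 40.03 and 31.7 in SCR and 35.8, 19.0 and 15.0 in siPiezo2. Slit3, with 24 peaks spread along its introns and 1 upstream of its start, had 554 and 492 (-0.17, -0.30 to -0.041), with 14 peaks lower and 11 higher, and its sign turned to 0.038 when recovered reads were set to the same total. Together the Slit genes had a median of -0.41 (-0.32 relative to the median of all genes), which stayed below 0 under each scaling but was 0.32 when only the promoter peak of Slit2, the sole one of the family within 1 kb of a start, was used. With recovered reads at the same total the family median was -0.24. Without the weakest 25% of peaks it was -0.19, and Slit2 stood at -0.095.

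Among the Slit receptors Robo1 was lower, while Robo2 and Robo3 were close to 0. Robo1, the receptor through which Slits act in many tissues, had 278 in SCR and 200 in siPiezo2 over 12 peaks (-0.47, -0.67 to -0.28), and 11 of these were lower. With recovered reads set to the same total it stood at -0.26. Its lowest peak, in intron 1 at chr16:72438123-72438677 (GRCm39), had 38.9 and 14.5, from 93 and 23 reads (-1.36, -2.09 to -0.69). Robo2 had 45.2 and 42.8 (-0.078, -0.54 to 0.37) and Robo3, which differs from its relatives in binding Slits poorly in mammals, had 44.5 and 45.7 (0.038, -0.41 to 0.48). The interval of Robo2, which has 3 peaks, holds the ratio of Robo1, and the difference between the genes was not tested. The family median of -0.078 turned above 0 under all 3 other scalings, while Robo1 stayed below 0 under each.

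The Unc5 receptors were lower in siPiezo2, while the netrins differed in sign. Ntn1, the secreted founding member of the netrins, had 153 in SCR and 165 in siPiezo2 over 6 peaks (0.10, -0.13 to 0.34), Ntn4, a basement membrane netrin, had 93.6 and 85.2 (-0.13, -0.45 to 0.18), and Ntn5 had 19.6 and 24.6 in 1 peak (0.32, -0.33 to 0.96). No netrin was separated from 0 by its counting interval. All 5 genes named Unc5 were lower (100%, against 62.6% of all genes), with a median of -0.47 (-0.37 relative to all genes). That median stayed below 0 under each scaling and was -0.32 (-0.23 relative to all genes) without Unc5cl. Unc5c carried the difference best supported by reads, with 163 in SCR and 114 in siPiezo2 over 7 peaks (-0.51, -0.78 to -0.26) of which 6 were lower. Unc5b, known from the endothelium of sprouting vessels, had 553 and 493 over 10 peaks (-0.16, -0.29 to -0.035), and its strongest peak, in intron 1, had 122 and 97.3. Its lowest peaks, a pair in the same intron, share reads, and with separate windows the gene stood at -0.10 (-0.24 to 0.033). Within intron 1 another peak of Unc5b was among the 5 highest of the strong member peaks (those at or above the members' median density), at 44.7 and 63.5 (0.50, 0.091 to 0.90). Unc5a (-0.18, 2 peaks), Unc5d (-0.47, 1 peak) and Unc5cl (-0.55, 1 peak) had intervals that held 0. Unc5cl only resembles the netrin receptors in name and domains and is not known as a netrin receptor.

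Among the semaphorins the ratios differed from gene to gene. Sema3a, a secreted repellent that in the heart patterns sympathetic nerves, had 258 in SCR and 190 in siPiezo2 over 13 peaks (-0.44, -0.64 to -0.24), 11 of them lower. No single peak made this up, since its lowest was -0.83 and leaving that out gave -0.39, while separate windows gave -0.34 (-0.57 to -0.12) and recovered reads at the same total -0.19. Sema3d, which is involved in endothelial and neural crest migration in the developing heart, went the other way by less than counting error, with 168 and 177 over 7 peaks (0.075, -0.15 to 0.30), and turned to -0.034 without its highest peak. That gene held both a strong peak with a surplus, in intron 5 with 23.2 and 35.6 (0.60, 0.040 to 1.16), and one with a deficit, in intron 16 with 28.8 and 15.6 (-0.85, -1.57 to -0.17). Sema3g, an endothelial semaphorin, has only a promoter peak, with 24.02 and 15.4 from 56 and 25 reads (-0.61, -1.35 to 0.097). The remaining class 3 genes, Sema3b, Sema3c, Sema3e and Sema3f, ranged from -0.13 to 0.28 with intervals holding 0. The class median of -0.049 was 0.044 above that of all genes, and turned above 0 under all 3 other scalings.

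Outside class 3, Sema5a, a membrane semaphorin with thrombospondin repeats, had 380 in SCR and 322 in siPiezo2 over 17 peaks (-0.24, -0.40 to -0.081), and -0.040 with recovered reads at the same total. Sema6a, a transmembrane ligand of A-type plexins, had 261 and 219 over 9 peaks (-0.25, -0.44 to -0.056), which became -0.17 (-0.38 to 0.031) with separate windows. Sema6d had 298 and 285 over 15 peaks (-0.066, -0.24 to 0.11). In contrast, class 4 held the highest ratios. Sema4b had 116 and 145 over 5 peaks (0.33, 0.072 to 0.59), and each of the 5 was higher, by 0.076 to 0.72. Some of these share reads, and the 3 with separate windows gave 0.31 (-0.024 to 0.64). Sema4d, the ligand of Plxnb1 that is best known from lymphocytes, was the only member above 1.5, on the strength of 1 peak in intron 2 at chr13:51902163-51902426 (GRCm39) with 17.5 and 27.0 from 41 and 44 reads (0.60, -0.051 to 1.25). Sema4a, Sema4c and Sema4f were between -0.13 and -0.052. The 11 genes of these classes had a median of -0.12, which turned to 0.015 after median-of-ratios scaling.

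Of the semaphorin receptors Nrp1 and Plxna4 were lower, and others lay nearer 0. Nrp1, a co-receptor for class 3 semaphorins and for VEGF, had 187 in SCR and 140 in siPiezo2 over 8 peaks (-0.41, -0.65 to -0.18), and every one of its peaks was lower. Nrp2 had 262 and 237 over 9 peaks (-0.14, -0.33 to 0.042), of which 5 were lower. Plxna4, a partner of the neuropilins, had 360 and 302 over 14 peaks (-0.25, -0.41 to -0.089), 12 of them lower, which became -0.073 with recovered reads at the same total. It also held the highest strong member peak, in intron 3 with 27.6 and 45.0 (0.69, 0.19 to 1.19). Plxna2 had 330 and 292 over 9 peaks (-0.18, -0.34 to -0.0099). Within Plxna2 the peaks diverged, from 33.7 and 46.1 at its start site (0.44, -0.033 to 0.91) to 43.8 and 20.3 in intron 29 (-1.07, -1.69 to -0.49). Plxnb2, a receptor for class 4 semaphorins, had 182 and 194 over 4 peaks (0.087, -0.13 to 0.30), and Plxnd1, the receptor of Sema3e on endothelium, had 51.6 and 53.6 (0.054, -0.36 to 0.46). The non-coding Plxna4os1 and Plxna4os2 lie with Plxna4 and had -0.61 (-1.199 to -0.052) and -0.49 (-1.24 to 0.23) in 1 peak each. ATAC-seq reads carry no strand, so their peaks cannot be assigned to them over Plxna4. The plexin median was -0.19 (-0.10 relative to all genes) with these antisense genes and -0.12 (-0.026 relative to all genes) over the 6 plexins alone, of which 4 were below 0. It turned to 0.11 with peaks called in both libraries only.

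No ephrin was separated from 0 by its counting interval. Efna5 had 274 in SCR and 263 in siPiezo2 over 13 peaks (-0.062, -0.24 to 0.12), 7 lower and 6 higher, and turned above 0 under the other scalings. Efnb2, the ephrin of arterial endothelium, had 61.5 and 68.5 (0.15, -0.22 to 0.52), Efna1 was at -0.17, Efnb1 at -0.13 and Efna4, with 1 peak, at -0.54 (-1.16 to 0.054). Among their receptors were genes with an interval below 0 and 1 above it. Ephb2 had 324 and 227 over 9 peaks (-0.51, -0.70 to -0.33), 7 of them lower. The lowest of these was the lowest of all strong member peaks, in the 3′ UTR at chr4:136376785-136377717 (GRCm39), with 68.6 in SCR and 22.1 in siPiezo2 from 172 and 34 reads (-1.59, -2.17 to -1.06). Without it Ephb2 stood at -0.32 (-0.52 to -0.12). Ephb4, which pairs with Efnb2 across the boundary of arteries and veins, had 106 and 77.8 over 3 peaks (-0.43, -0.76 to -0.12), all lower. Ephb1 (0.13), Ephb3 (-0.16) and Ephb6 (0.052) had intervals holding 0.

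Epha2, a receptor that is prominent in epithelial and vascular cells, was higher in siPiezo2 at each of its 3 peaks. Its promoter had 23.0 in SCR and 29.9 in siPiezo2, and the neighbouring peaks in intron 3 had 51.6 and 66.7, and 50.2 and 67.3, so that the sums were 125 and 164 (0.39, 0.15 to 0.63). The windows of those intron 3 peaks overlap and share reads, which makes this interval too narrow. With separate windows Epha2 stood at 0.37 (0.048 to 0.68), and the widened interval then reached from -0.090 to 0.82. Epha4 had 130 and 106 over 5 peaks (-0.29, -0.57 to -0.013), where a deficit at 2 neighbouring peaks in intron 3 stood beside a promoter at 40.2 and 43.1 (0.10, -0.37 to 0.56). Those neighbouring peaks share reads too, and with separate windows Epha4 stood at -0.14 (-0.44 to 0.16). Epha1, Epha3, Epha5 and Epha7 were between -0.094 and 0.11. The EphA median was 0.0020 and the EphB median -0.16, against -0.093 for all genes.

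Ligands and receptors were alike in their medians, at -0.13 for 29 genes and -0.16 for 29 genes. Summed over genes, the ligands had 3636 in SCR and 3320 in siPiezo2 (-0.13, -0.18 to -0.082), and the receptors 3895 and 3377 (-0.21, -0.25 to -0.16). The receptors include the 2 non-coding Plxna4 antisense genes, and their median without these was also -0.16.

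**Figure D2:**
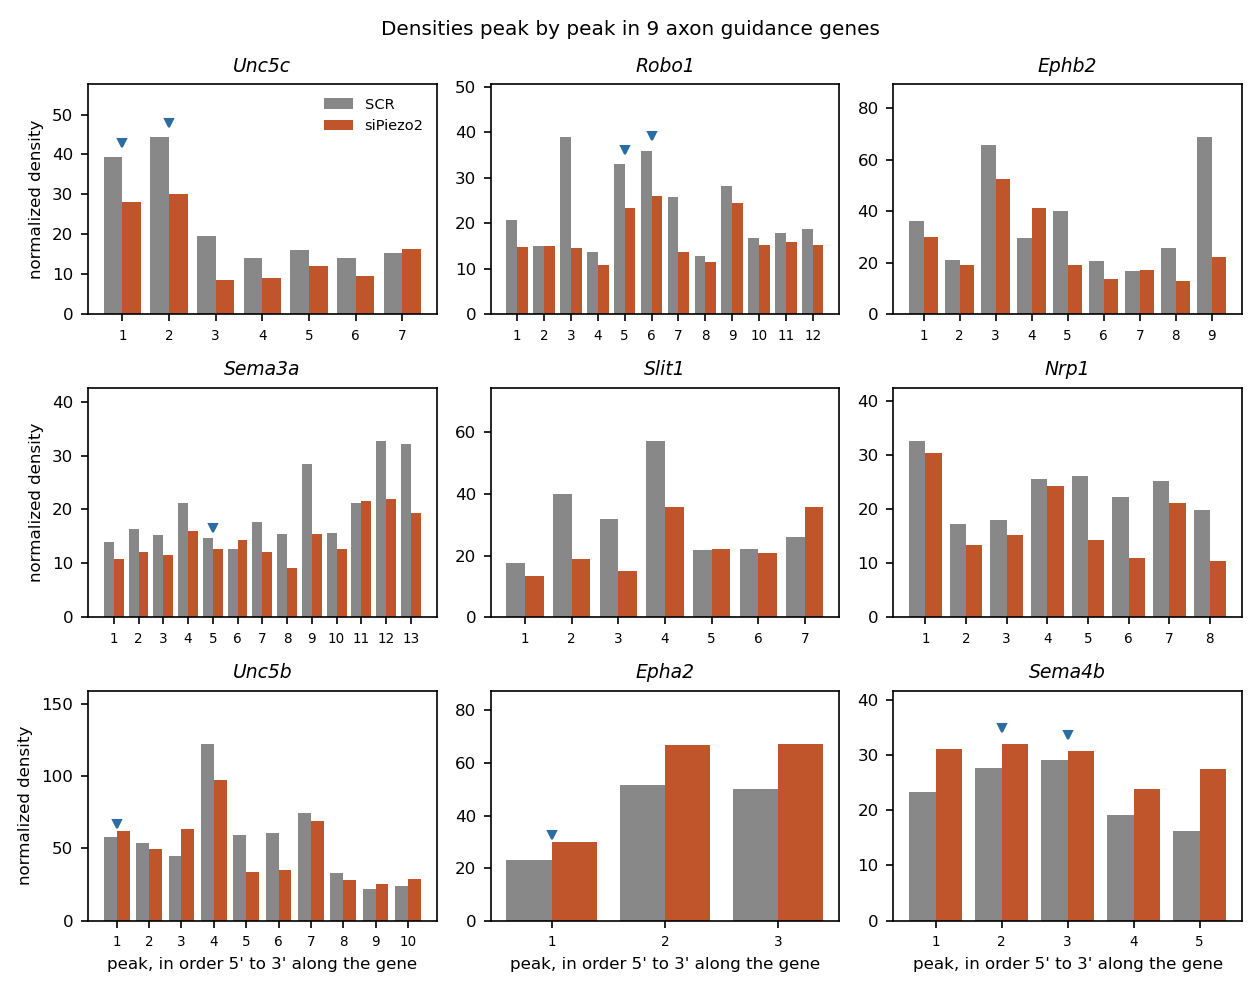
Normalized density of SCR (grey bars) and siPiezo2 (orange bars) at every peak of 9 guidance genes, numbered 5′ to 3′ along the gene, with triangles over peaks at a start site. Every Nrp1 peak and 11 of 12 Robo1 peaks are lower in siPiezo2, every Epha2 and Sema4b peak is higher, and Unc5b and Slit1 hold peaks of either kind.

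Peak by peak, the members resembled the rest of the table. Of the 277 peaks 175 were lower in siPiezo2 (63.2%, against 63.7% of all peaks), 41 were below 0.66 of SCR (14.8%, against 13.5%) and 5 were above 1.5 (1.81%, against 3.21%). The counting interval lay below 0 at 39 peaks (14.1%, against 11.4%) and above 0 at 5 (1.81%, against 3.63%). The 41 low peaks came from 21 genes, led by Sema5a with 4, and 3 each at Ephb2, Nrp1, Sema3a, Efna5 and Slit1. Of the member peaks 204 had been called in the SCR library only (73.6%, against 61.2% of peaks with a gene), 69 in both (24.9%, against 36.8%) and 4 in siPiezo2 only (1.44%, against 1.99%). Member peaks called in SCR only had a median of -0.25, against -0.22 for all such peaks with a gene, and those called in both had 0.052, against 0.0096, and calling itself favours the library with more signal.

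**Figure D3:**
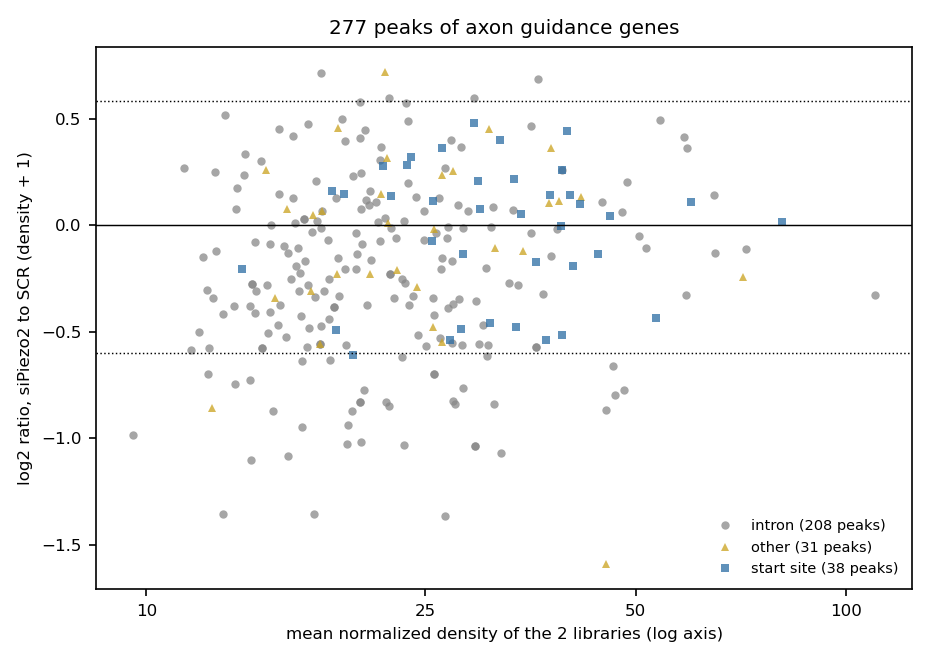
Log2 ratio against mean density (log axis) of the 277 member peaks, with introns as circles, start sites as squares and other positions as triangles; dotted lines mark 0.66 and 1.5 of SCR. The lowest point is the 3′ UTR peak of Ephb2 at -1.59, and of the 38 start-site peaks only that of Sema3g lies below 0.66.

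Most of the lower peaks lay in introns. Members are long genes, with a median span of 80708 bp against 21944 bp for all genes with a peak, and 75.1% of their peaks were in introns against 60.6% of peaks with a gene. The 208 intron peaks had a median of -0.23, with 144 lower (69.2%, against 66.2% of all intron peaks), against -0.17 for all of those. The 26 peaks in promoters within 1 kb had a median of 0.076, with 10 lower (38.5%, against 53.7% of all such peaks), against -0.030 for all of those. By distance from the start of the annotated transcript, the median was 0.067 within 1 kb, -0.056 from 1 to 10 kb, -0.23 from 10 to 100 kb and -0.25 beyond 100 kb, against -0.041, -0.15, -0.17 and -0.18 for all peaks with a gene. By these distances members were above the rest near start sites and below it far from them, a pattern that was not tested. Not every class of position followed it: the 13 peaks in 5′ UTRs had a median of -0.19 against -0.043 for all such peaks, and the 4 downstream of a gene 0.25 against -0.14. Restricted to promoter peaks, the median of the 25 members that have one was 0.10 against -0.025 for all such genes, with 9 below 0. The share of all such genes below 0 was not computed.

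**Figure D4:**
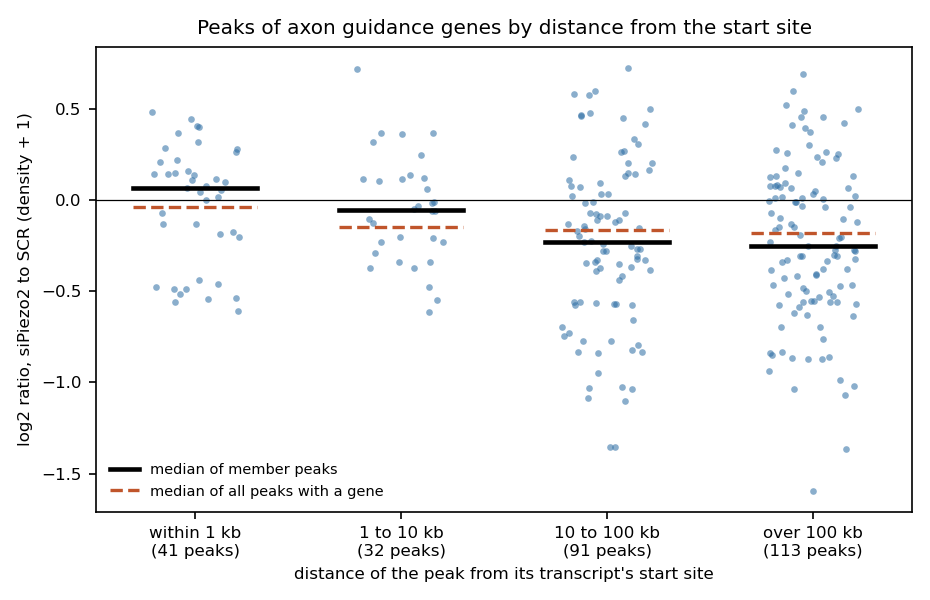
Log2 ratio of each member peak (points) by distance from the start site of its transcript, with the median of the member peaks (black) and of all peaks with a gene (dashed orange). The member median goes from 0.067 within 1 kb to -0.25 beyond 100 kb.

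At start sites, defined as promoter or 5′ UTR peaks within 1 kb, 34 members had 38 peaks with a median of 0.064, of which 16 were lower. All peaks with a gene within 1 kb of a start, a wider set, had a median of -0.041, with 55.1% lower. The interval lay below 0 at 3 of the 38 member peaks (7.89%, against 6.71% of all start-site peaks) and above 0 at none (0%, against 4.97%). These were the main Unc5c promoter, with 44.2 in SCR and 30.1 in siPiezo2 (-0.54, -1.07 to -0.035), the Ephb4 promoter with 46.4 and 32.1 (-0.52, -1.02 to -0.026) and a downstream start of Ephb3 with 61.8 and 45.3 (-0.44, -0.87 to -0.021). A second Unc5c promoter peak, which shares reads with the first, had 39.4 and 28.0 (-0.48, -1.03 to 0.050). At Robo1 a pair of start-site peaks that share reads had 33.1 and 23.3 (-0.49, -1.09 to 0.090), and 36.0 and 25.9 (-0.46, -1.03 to 0.092). The start-site values of Unc5c and Robo1 were below 0 like their sums, those of Robo1 by less than counting error, whereas Epha4, Slit2 and Unc5b had sums below 0 and promoter values above 0 whose intervals held 0. At the other end were Ephb1 with 24.4 and 34.4 (0.48, -0.077 to 1.03), Plxna2 (0.44) and Sema3d, with 27.4 and 36.6 (0.40, -0.13 to 0.93).

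The promoters of 4 genes are printed, Unc5c and Robo1 for start-site values below 0, Epha2 for a gene higher at each peak and Ephb1 for the highest start site. The sequences are RefSeq's, of build GRCm38.p6, with 250 bases before and 50 after the start, while the peak positions are of another build. Capitals mark matches to the motifs searched on both strands, namely GGAATG for TEAD factors, TGANTCA for AP-1 and the CArG box of SRF, factors that act in mechanically stressed fibroblasts. No matches overlap in these windows.
Unc5c, chr3:141465314-141465613, plus strand: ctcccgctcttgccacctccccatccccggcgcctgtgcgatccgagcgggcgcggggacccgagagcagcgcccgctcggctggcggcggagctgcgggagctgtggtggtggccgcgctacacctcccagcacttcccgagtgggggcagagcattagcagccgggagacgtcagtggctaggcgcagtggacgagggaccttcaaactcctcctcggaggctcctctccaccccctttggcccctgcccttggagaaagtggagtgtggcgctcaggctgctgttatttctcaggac
Robo1, chr16:72662899-72663198, plus strand: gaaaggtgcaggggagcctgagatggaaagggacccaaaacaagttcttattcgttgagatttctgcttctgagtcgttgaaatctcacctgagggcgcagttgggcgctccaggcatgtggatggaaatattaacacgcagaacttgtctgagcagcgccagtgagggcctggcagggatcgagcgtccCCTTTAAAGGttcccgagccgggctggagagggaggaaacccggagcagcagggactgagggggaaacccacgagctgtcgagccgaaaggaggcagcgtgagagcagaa
Epha2, chr4:141300971-141301270, plus strand: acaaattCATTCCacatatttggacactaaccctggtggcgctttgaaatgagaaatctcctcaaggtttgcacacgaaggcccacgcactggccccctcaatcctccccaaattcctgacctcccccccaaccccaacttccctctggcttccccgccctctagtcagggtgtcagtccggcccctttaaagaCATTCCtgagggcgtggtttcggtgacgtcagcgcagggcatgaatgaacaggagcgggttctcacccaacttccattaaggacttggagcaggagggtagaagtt
Ephb1, chr9:102354644-102354943, minus strand: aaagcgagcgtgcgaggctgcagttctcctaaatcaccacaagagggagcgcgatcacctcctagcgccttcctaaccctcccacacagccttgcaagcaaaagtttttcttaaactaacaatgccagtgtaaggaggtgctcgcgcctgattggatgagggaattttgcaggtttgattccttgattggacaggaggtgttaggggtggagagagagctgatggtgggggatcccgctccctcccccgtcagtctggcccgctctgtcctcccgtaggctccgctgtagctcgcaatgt
Robo1 holds a CArG box at positions 191 to 200 of the run, and Epha2 holds the TEAD motif at positions 8 and 195, on the reverse strand. The Unc5c and Ephb1 windows hold none of the 3 motifs. The Unc5c window is rich in CpG, with 24 CpG dinucleotides and 68.3% G and C, against 15 CpG in Robo1, 14 in Ephb1 and 10 in Epha2. Over the 63 RefSeq promoters of the 48 members matched by symbol, the TEAD motif was in 7 (11.1%, against 14.7% of 32851 promoters), AP-1 in 3 (4.76%, against 7.81%) and the CArG box in 2, those of Robo1 and Sema4d (3.17%, against 1.63%). Such matches describe the letters only and say nothing of binding.

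The partners of these families, a list of 65 co-receptors and intracellular effectors outside the symbol rule, lay near the members. Of the 63 with a peak, all but Cdk5 and Cxcr4, 47 were below 0 (74.6%, against 62.6% of all genes), 1 was below 0.66 (1.59%, against 6.21% of all genes) and none was above 1.5 (against 1.54%). Their median was -0.14, against -0.13 for the members, and turned to 0.0029 when recovered reads were set to the same total. The interval lay below 0 for 21 (33.3%, against 15.2%) and above 0 for 4 (6.35%, against 4.37%). Such intervals are more frequent among genes with many peaks, at 38.6% of all genes with 5 or more peaks for those below 0. The partners were not compared with genes of like peak number. The low one was Dpysl4, of the collapsin response mediators, with 37.2 in SCR and 19.5 in siPiezo2 in 1 peak (-0.90, -1.53 to -0.29). The netrin receptor Dcc had 77.9 and 56.4 (-0.46, -0.84 to -0.087), and its relative Neo1 had 52.9 and 50.6 (-0.062, -0.48 to 0.35). Enzymes between semaphorin receptors and actin included Mical1 with 168 and 124 (-0.44, -0.70 to -0.19) and Limk2 with 284 and 224 (-0.34, -0.53 to -0.16), while their relatives Limk1 (0.28, -0.077 to 0.63) and Mical3 (-0.0043) had intervals holding 0, as did the GTPases Rac1 (0.085) and Rhoa (-0.14). Mical2, with 21 peaks, stood at -0.19 (-0.29 to -0.089). The Slit effectors Srgap1 (-0.17), Srgap2 (-0.14) and Srgap3 (0.14) differed in sign. The 4 above 0 were Flrt3, a Robo1 and Unc5 binding protein, with 27.7 and 41.8 (0.58, 0.066 to 1.09), Rasa1, a Ras GTPase-activating protein, with 35.7 and 53.5 (0.57, 0.12 to 1.02), Gipc1, which binds neuropilin tails, with 56.0 and 77.2 (0.46, 0.092 to 0.82), and Ntng2 with 52.4 and 72.1 (0.45, 0.077 to 0.83).

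Of the 70 protein-coding genes that RefSeq lists under the same rule, 56 had a peak with their symbol. Those without were Efna2, Efna3, Efnb3, Epha6, Epha8, Epha10, Ntn3, Plxna3, Plxnb1, Plxnb3, Robo4, Sema4g, Sema5b and Unc50, the last of which is unrelated to netrin receptors. The endothelial receptor Robo4 is among them, although 5 of 6 endothelial marker genes had a peak. Peaks between genes carry no symbol in the table and are outside these sums.

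Several members are also used by endothelial and mural cells, and some marker genes of those cells have peaks in the table. Cardiac fibroblast markers had a peak at 6 of 7 genes, all but Lum, with summed densities of 522 in SCR and 442 in siPiezo2 and a median of -0.30. Of these, Col1a2 was at -0.50 (-0.79 to -0.21) and Col1a1 at -0.44 (-0.73 to -0.15), while Postn (-0.49), Pdgfra (-0.16), Tcf21 (-0.032) and Dcn (0.21) had intervals holding 0. Endothelial markers had one at 5 of 6, all but Tie1, at 376 and 405 (median 0.0068), of which Cdh5 had 47.7 and 78.0 (0.70, 0.32 to 1.08), while Emcn (0.41), Pecam1 (0.0068), Tek (-0.063) and Kdr (-0.098) had intervals holding 0. Pericyte or smooth muscle markers had one at 4 of 5, at 469 and 372 (-0.18), where Rgs5 was lowest, with 127 and 56.0 (-1.16, -1.52 to -0.82). Among the other mural markers Pdgfrb was at -0.46 (-0.72 to -0.21), while Cspg4 (0.16) and Abcc9 (0.095) had intervals holding 0. Macrophage markers had one at 3 of 6, at 187 and 185, with Spi1 at 0.45 (0.077 to 0.82), Ptprc at -0.24 and Csf1r at -0.25. Cardiomyocyte markers had one at 3 of 5, at 146 and 152, with intervals holding 0. Epicardial or mesothelial markers had one at 3 of 3, at 98.8 and 84.3, with Wt1 at -0.61 (-1.08 to -0.15), Msln at -0.23 and Upk3b at 0.56. Schwann or neural markers had one only at Tubb3, with 117 and 98.5. An open site does not show expression, and the part of the cell mixture in the members' ratios was not tested. Fewer cells of a type and less open chromatin per cell cannot be told apart in these libraries.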

How the data were processed

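ATAC-seq libraries of 2 samples, 1 per condition, were analysed. The deposited signal columns are read densities per peak, which the authors put on a common scale by an MA-plot fit. The authors' methods name bwa, Picard and MACS2, and the submitters' notes BWA 0.7.12 and mm10, although positions in the table are those of GRCm39. The authors' columns of log2 ratio, mean log2 density and p-values were not used. Whole reads were recovered from the deposited densities (100% of peaks within 0.05 reads), with 1 read taken off each window on the assumption that the normalization adds it. Gene members, families and lists were chosen with earlier results of these data known. Named genes were members past 0.66 or 1.5, the highest of each family in SCR, and the 5 lowest and 5 highest ratios among members at or above the median density (29 genes). Other genes were named after their values were seen. Named peaks were the 5 lowest and 5 highest likewise, and the promoters of named genes. Windows of 26 member peaks overlap the one before. Alternatives covered pseudocount (0.1), scaling, weak peaks, position, calling and fold (2). Read recovery and intervals were also run on simulated reads with counting error only, built with the same fit, window and added read. That run cannot check the assumptions behind the recovery, nor the extra variance of the real peaks. Analyses ran in Python 3.11.15 with scipy 1.17.1, pandas 2.3.3 and numpy 2.4.6, and figures in matplotlib 3.10.9.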

Additional observations from a re-analysis of the deposited data

How the results depend on the processing

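No paired analysis was possible because each condition has 1 library. With 1 library each, no value has a replicate check, and a member peak of 55 and 34 reads, the medians, sets the precision. The single-gene alternatives counted here cover the 21 genes named by the rule, and not Nrp1, Slit1, Ephb4, Sema6a or Plxna2. Among results for single genes, 4 changed sign against an interval that excludes 0: Slit3 (0.038 with recovered reads at the same total), and with promoter peaks only Epha4 (0.10), Slit2 (0.32) and Unc5b (0.11). Of the other values for single genes, 161 stayed within the counting interval and 10 left it, namely Ephb2 without its 3′ UTR peak (-0.32), Slit3 (-0.030) and Unc5b (-0.024) after median-of-ratios scaling, Slit2 without the weakest peaks (-0.095), Plxna4 with promoter peaks only (-0.074), and with recovered reads at the same total Robo1 (-0.26), Sema3a (-0.19), Plxna4 (-0.073), Sema5a (-0.040) and Efna5 (0.14).

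After median-of-ratios scaling the median was 0.0022 for the members, 0.088 for class 3 semaphorins, 0.015 for other semaphorins, -0.056 for plexins, -0.026 for EphB, -0.27 for Slits, -0.33 for Unc5, -0.0022 for the partners, 0.21 for promoter peaks and -0.094 for intron peaks, with 0 genes below 0.66 (3.40% of all genes) and 16 peaks above 1.5 (5.78%, against 6.202% of all peaks). At the same total density it was -0.048 for the members, -0.035 for other semaphorins and -0.053 for the partners, with 0 genes low (4.22% of all) and 8 peaks high (2.89%, against 4.90%). With recovered reads at the same total it was -0.017 for the members, 0.086 for class 3 semaphorins, -0.040 for other semaphorins, -0.048 for plexins, -0.10 for neuropilins, -0.010 for ephrin A, 0.19 for EphA, -0.24 for Slits, 0.22 for Robo, -0.32 for Unc5 and 0.0029 for the partners, with 0 genes low (2.92% of all) and 21 peaks high (7.58%, against 7.80%). Without the weakest 25% of peaks it was -0.19 for Slits and -0.31 for Robo.

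With promoter peaks only it was 0.0996 for the members, 0.20 for class 3 semaphorins, -0.0034 for other semaphorins, -0.074 for plexins, 0.034 for EphB, 0.32 for Slits, 0.14 for Robo and -0.21 for Unc5. With the strongest peak of each gene it was -0.082 for the members, 0.093 for class 3 semaphorins, -0.072 for plexins, -0.071 for neuropilins, 0.017 for EphB and -0.46 for Robo. With peaks called in both libraries it was -0.017 for the members, 0.20 for class 3 semaphorins, 0.11 for plexins, -0.073 for neuropilins, 0.26 for ephrin A and -0.30 for Slits. At a fold of 2 there were 0 genes on either side (0.839% and 0.154% of all genes), 12 low peaks (2.76% of all peaks are low) and 0 high ones (0.504%). With distal peaks added, an alternative chosen after seeing the data, it was -0.29 for class 3 semaphorins and -0.26 for Slits, and without Unc5cl, also chosen so, -0.32 for Unc5. The cause of these differences was not tested, beyond the smaller sets of peaks that some alternatives leave.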

Other observations

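Peaks between genes carry no symbol in the table, and an assignment to the nearest start site, chosen after seeing the data, added 106 of them to 27 members. Their median log2 ratio was -0.24, with 72 lower (67.9%, against 66.3% of all distal peaks), against -0.18 for all 19430 distal intergenic peaks, and 23 of the 106 were below 0.66 of SCR (21.7%, against 16.6% of all distal peaks). Slit3 had 4 such peaks upstream, all lower, with a sum of 165 in SCR and 109 in siPiezo2 (-0.60, -0.86 to -0.34), or -0.56 (-0.85 to -0.27) over the 3 with separate windows, while the 25 peaks with its symbol stood at -0.17. The strongest of the 4, at chr11:34956678-34957210 (GRCm39), had 84.9 and 55.0 from 224 and 82 reads (-0.62, -1.002 to -0.25) and was called in both libraries. Sema3a had 5, all lower, at 84.3 and 52.5 (-0.67, -1.06 to -0.30), beside -0.44 over the peaks with its symbol. Plxna2 had 8, with 231 and 187 (-0.30, -0.51 to -0.097), but its lowest distal peaks share reads, and the 6 with separate windows gave -0.18 (-0.42 to 0.068). In contrast Nrp1, lower at each of its own peaks, had 11 distal peaks of which 5 were lower, with 319 and 310 (-0.042, -0.21 to 0.12), and Unc5c had 1, with 22.1 and 22.2. Slit2 had the most, 17, at 314 and 280 (-0.17, -0.34 to 0.0058). The nearest start site need not be the gene a distal region acts on.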
